A study of Mus musculus with 4 samples.

Results

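The 5 genes described here encode Notch receptors and proteins that carry or tune their signal: Notch1, Notch2, Rbpj, Maml3 and Dtx1. They were chosen by name, as the listed windows of a methylation table that overlap each annotated gene with 1000 bp on each side. This gave 1773 of 1048575 listed windows and 5 of 9573 protein-coding loci in the range of the table. The assay was MeDIP-seq: an antibody to 5-methylcytosine enriches the methylated pieces of sheared DNA before sequencing, and a library of the unenriched DNA (input) serves as background. The DNA came from mouse NKT thymocytes, a lineage of T cells that see lipid antigens, which were isolated as CD1-tetramer binding cells. The 4 libraries were a MeDIP and an input library of WT mice and a MeDIP and an input library of PLZFon mice, all from C57BL/6 mice, with 1 library in each group. PLZF is a zinc finger transcription factor that NKT cells need to mature, and the title of the series names the level of its acetylation. How the PLZFon allele was made is not given in the labels, nor are the age and number of mice or any treatment. With 1 library a group there is no test of genotype. Each difference below is one between 2 libraries, and each 95% interval is an exact (Clopper-Pearson) binomial interval that covers counting error only.

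Notch receptors are cut after they bind a ligand on a neighbouring cell, and the released intracellular part moves to the nucleus. There it binds the DNA-binding protein RBPJ, and a Mastermind-like protein such as MAML3 joins them to switch target genes on. In the thymus NOTCH1 directs early progenitors to the T cell fate. NOTCH2 is best known in lymphocytes for marginal zone B cells. DTX1 (Deltex1) is a ubiquitin ligase that binds the intracellular part of Notch, and its gene is itself a Notch target in T cells. Methylation of CpG sites in a promoter goes with silencing, and methylation inside the body of a gene is common in active genes too.

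The library totals were 15141449 reads for WT MeDIP, 10633609 for PLZFon MeDIP, 60683037 for WT input and 50374582 for PLZFon input. After scaling to these totals, WT MeDIP held 4.44 times as many reads as its input over all listed windows, and PLZFon MeDIP held 4.22 times as many. The antibody label names the antibody for both WT libraries and none for both PLZFon libraries, which goes against the titles used here for grouping. Windows were listed by the reads of the libraries titled MeDIP, which favours a value above 1, so these values do not settle the label. A listed window lay within 1 kb of the start in 3 of 4 matched T cell genes, 3 of 4 B cell genes and 2 of 3 myeloid genes, with 0 to 8, 0 to 8 and 0 to 4 windows a gene. MeDIP reads do not measure expression, so the labelled cell type was not checked by these lists. A methylation difference within the cells and a different mix of cells cannot be told apart in such libraries.

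The RefSeq promoter starts of all 5 genes lay in CpG-rich sequence, and no listed window overlapped them. The 250 bases before each promoter start in RefSeq are shown because they are the CpG-dense part of each gene where the table lists no window. They are RefSeq sequence (GRCm38.p6, the primary assembly of mm10), written 5′ to 3′ in the direction of the gene, with each CpG in capitals.
Notch1, chr2:26503823-26504072 (minus strand): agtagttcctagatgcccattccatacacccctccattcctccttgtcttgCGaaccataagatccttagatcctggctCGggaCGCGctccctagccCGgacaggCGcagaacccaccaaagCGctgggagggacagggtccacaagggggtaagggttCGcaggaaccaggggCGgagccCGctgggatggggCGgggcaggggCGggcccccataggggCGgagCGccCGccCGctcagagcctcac
Notch2, chr3:98013288-98013537 (plus strand): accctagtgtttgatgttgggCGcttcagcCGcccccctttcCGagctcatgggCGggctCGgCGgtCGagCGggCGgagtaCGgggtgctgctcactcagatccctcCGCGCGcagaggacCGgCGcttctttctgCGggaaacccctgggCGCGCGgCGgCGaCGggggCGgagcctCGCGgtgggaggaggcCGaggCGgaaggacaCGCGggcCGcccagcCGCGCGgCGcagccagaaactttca
Rbpj, chr5:53590096-53590345 (plus strand): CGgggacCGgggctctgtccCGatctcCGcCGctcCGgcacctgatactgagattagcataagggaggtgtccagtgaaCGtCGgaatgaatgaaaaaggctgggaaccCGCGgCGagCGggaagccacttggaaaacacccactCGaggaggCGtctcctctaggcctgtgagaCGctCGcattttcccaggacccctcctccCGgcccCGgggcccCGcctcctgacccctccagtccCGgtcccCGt
Maml3, chr3:52105007-52105256 (minus strand): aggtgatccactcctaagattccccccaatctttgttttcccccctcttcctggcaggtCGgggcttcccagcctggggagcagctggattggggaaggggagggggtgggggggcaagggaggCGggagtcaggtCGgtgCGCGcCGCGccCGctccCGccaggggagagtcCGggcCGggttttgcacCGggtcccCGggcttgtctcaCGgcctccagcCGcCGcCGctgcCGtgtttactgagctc
Dtx1, chr5:120711670-120711919 (minus strand): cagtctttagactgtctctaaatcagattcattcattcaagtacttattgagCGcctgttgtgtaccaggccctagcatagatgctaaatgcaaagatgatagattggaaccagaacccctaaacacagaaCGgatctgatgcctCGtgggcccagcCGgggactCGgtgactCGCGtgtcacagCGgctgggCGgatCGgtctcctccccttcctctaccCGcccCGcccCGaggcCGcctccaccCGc

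The 300 bases from 250 before to 50 after the start held 23 CpG in Notch1, 41 in Notch2, 26 in Rbpj, 22 in Maml3 and 26 in Dtx1, against a median of 13 over 9786 promoters of protein-coding genes in the range. The RefSeq promoters of Rbpj start 34567 and 34707 bp inside the annotated gene, and the 300 bases of the latter held 28 CpG. Listed windows do lie at the annotated Rbpj start, for which no promoter sequence was used here. The nearest listed window lay 4828 bp upstream of the Notch1 start and 3944 bp upstream of the Maml3 start. It lay 688 bp upstream in Notch2, 882 bp upstream in Dtx1 and 1704 bp downstream in Rbpj. Promoters with many CpG seldom overlapped a listed window. Among the 3427 promoters with 20 or more CpG, 1.49% overlapped a listed window. The share was 15.9% of the 3442 promoters with 5 to 19 CpG and 13.5% of the 2917 promoters with under 5 CpG. Each listed window held at least 10 MeDIP reads over both libraries, but a window can be unlisted for reasons the table does not show, so no level is given for these starts.

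RBPJ binds a sequence with the core TGGGAA. This core, or TTCCCA on the other strand, occurred 2 times in the Rbpj sequence shown above and 1 time in that of Maml3. It was not found in those of Notch1, Notch2 and Dtx1. Of the 9786 promoters 21.2% held it in the 250 bases before the start. A match is a description of the letters and not a binding site.

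The first comparison asked how strongly each gene was pulled down. Maml3, the largest of the 5 genes, had the strongest pull-down over input in both genotypes, and Dtx1 had the weakest. The other 3 genes lay between them. Levels are given as reads per listed window, scaled to library totals (RPM). The reads given below for a gene or a bin are sums of window counts. A read is counted in about 4 neighbouring windows, so these sums exceed the number of separate reads. Dtx1, for instance, had 916 in WT MeDIP by this sum and 229 after division by 4. Intervals and minimum read numbers of genes and bins use the divided sums.

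Maml3 (chromosome 3, 51687320 to 52105319) had 1125 listed windows, which held 14315 reads in WT MeDIP, 9861 in PLZFon MeDIP, 11450 in WT input and 9593 in PLZFon input. Per listed window these were 0.84, 0.824, 0.168 and 0.169 RPM. Both MeDIP libraries were thus close to each other and well above both inputs. MeDIP over input was 5.01 in WT (95% interval 4.77 to 5.26) and 4.87 in PLZFon (4.6 to 5.15).

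Notch2 (chromosome 3, 98013538 to 98150367) had 359 listed windows with 4269 reads in WT MeDIP, 2823 in PLZFon MeDIP, 3656 in WT input and 3257 in PLZFon input. Its levels were 0.785, 0.739, 0.168 and 0.18 RPM per window. MeDIP over input was 4.68 in WT (4.28 to 5.12) and 4.11 in PLZFon (3.71 to 4.55). The WT MeDIP level was the higher of the pair, and the inputs stood in the opposite order.

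Notch1 (chromosome 2, 26457902 to 26503822), the receptor of early T cell progenitors, had only 50 listed windows, or 1.04 per kb of the locus against 2.59 in Notch2 and a median of 1.5 over loci. They held 659 reads in WT MeDIP, 382 in PLZFon MeDIP, 624 in WT input and 610 in PLZFon input, which are 0.87, 0.718, 0.206 and 0.242 RPM per window. MeDIP over input was 4.23 in WT (3.38 to 5.3) and 2.97 in PLZFon (2.27 to 3.86). PLZFon had the lower MeDIP level and the higher input level of the pair.

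Rbpj (chromosome 5, 53555779 to 53657445), which encodes the DNA-binding partner of all Notch receptors, had 157 listed windows. They held 1929 reads in WT MeDIP, 1490 in PLZFon MeDIP, 1901 in WT input and 1965 in PLZFon input, which are 0.811, 0.892, 0.2 and 0.248 RPM per window. Here PLZFon was higher in the MeDIP pair and in the input pair alike. MeDIP over input was 4.07 in WT (3.58 to 4.63) and 3.59 in PLZFon (3.13 to 4.12).

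Dtx1 (chromosome 5, 120680203 to 120711867) had 82 listed windows, 2.44 per kb. They held 916 reads in WT MeDIP, 441 in PLZFon MeDIP, 1095 in WT input and 912 in PLZFon input, which are 0.738, 0.506, 0.22 and 0.221 RPM per window. The inputs were level, and the PLZFon MeDIP value was the lowest of all 10 MeDIP values of these genes. MeDIP over input was 3.35 in WT (2.8 to 4.01) and 2.29 in PLZFon (1.81 to 2.89).

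**Figure D1:**
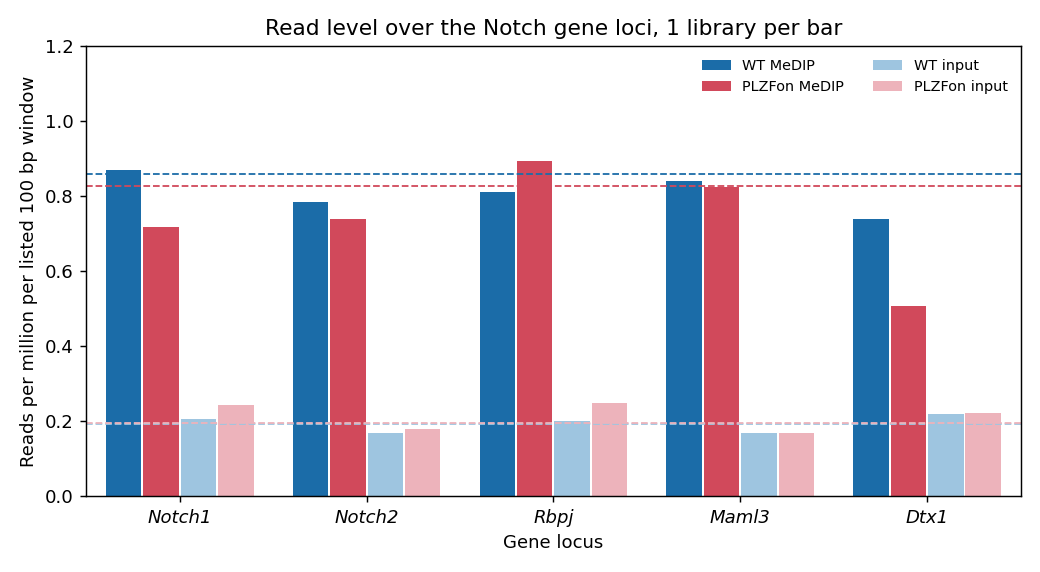
RPM per listed 100 bp window over each of the 5 gene loci (y axis), 1 bar per library, with the mean over all listed windows of each library as a dashed line of the same colour. The PLZFon MeDIP bar of Dtx1 (0.506) is the lowest MeDIP bar, while the 2 Dtx1 input bars (0.22 and 0.221) are level.

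In WT the order of MeDIP over input was Maml3, Notch2, Notch1, Rbpj and Dtx1. The intervals of neighbours in that order overlapped throughout, and that of Dtx1 lay below those of Notch2 and Maml3. In PLZFon the order was Maml3, Notch2, Rbpj, Notch1 and Dtx1. There the interval of Maml3 lay above those of the other 4 genes, and that of Dtx1 lay below those of Rbpj, Notch2 and Maml3. With a read taken to span 7 windows, that of Dtx1 lay below that of Maml3 alone in WT and below those of Notch2 and Maml3 in PLZFon, and those of Maml3 and Notch2 overlapped. The median over 7668 protein-coding loci with at least 20 MeDIP reads was 4.18 in WT and 3.97 in PLZFon, with quartiles of 3.56 and 4.84 in WT and of 3.3 and 4.63 in PLZFon. Only listed windows enter these values, and windows were listed by their MeDIP reads, so each value is a level over windows with reads and not over the whole gene.

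The mean CpG content of Dtx1 was that of all listed windows, but few of its windows were rich in CpG. The table's CpG factor equalled the number of CpG in the window in 97.2% of 1004 windows that lay inside promoter sequence and was 1 higher in the other 28, so it is used here as a CpG count. Listed windows held a mean of 2.34 CpG in Dtx1, 2.41 in Maml3, 2.28 in Notch1, 2.25 in Notch2 and 2.22 in Rbpj, against 2.34 over all listed windows. Windows with 5 or more CpG were 2 of 82 in Dtx1, 6 of 50 in Notch1, 24 of 359 in Notch2, 10 of 157 in Rbpj, 93 of 1125 in Maml3 and 81797 of all 1048575. Against all listed windows with the same CpG counts, MeDIP over input of Dtx1 was 0.754 times in WT and 0.541 times in PLZFon. The same values were 1.12 and 1.15 for Maml3, 1.07 and 0.984 for Notch2, 0.931 and 0.864 for Rbpj, and 0.958 and 0.707 for Notch1.

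Pull-down was stronger in windows with more CpG in Maml3, as over all listed windows. In Maml3, WT MeDIP over input was 4.25 in windows with 1 CpG and 7.4 (6.32 to 8.7) in the 93 windows with 5 or more, against 3.68 and 6.59 over all listed windows. In Rbpj the 10 windows with 5 or more CpG stood at 8.06 in WT and 5.49 in PLZFon. Dtx1 had only 2 such windows, at 5.11 in WT (1.73 to 15.8). Its WT values for 1 to 4 CpG ran from 2.89 to 3.61 and did not rise with CpG. This was not particular to Dtx1. The WT values for 1 to 4 CpG did not rise steadily in Rbpj (3.57 to 4.28), Notch1 (3.11 to 4.91) or Notch2 (4.05 to 5.2) either.

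The window with the most WT MeDIP reads lay inside each gene, from 13.2 to 174.9 kb from the start. In Maml3 this window held 10 CpG and lay furthest in (chromosome 3, 51930401 to 51930500). The window was covered by 82 reads in WT MeDIP, 33 in PLZFon MeDIP, 18 in WT input and 16 in PLZFon input, a PLZFon over WT MeDIP ratio of 0.573 (0.37 to 0.868). Since the window was chosen for its WT reads, the choice favours a ratio below 1. The corresponding windows of the other genes had 45 WT MeDIP reads in Notch2, 40 in Rbpj, 31 in Notch1 and 22 in Dtx1, with ratios from 0.583 (Dtx1) to 1.1 (Rbpj) whose intervals all included 1.

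The second comparison asked whether the MeDIP reads over these genes differed between PLZFon and WT. Dtx1 was lower in the PLZFon library, at 0.686 times the WT level (log2 ratio -0.54), and it was the only one of the 5 genes whose interval excluded equality (0.541 to 0.864, or 0.499 to 0.933 with a read taken to span 7 windows). Its input ratio was 1 (0.838 to 1.2). The ratio is under the 2-fold size that was asked of a called locus. By that rule 0 of the 5 genes were called higher or lower, where, of all protein-coding loci with 20 or more reads, 0.0913% were called higher and 0.352% lower, or 0.443% in all.

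For Notch1 the MeDIP libraries gave 0.825 (0.635 to 1.07) and the inputs gave 1.18 (0.936 to 1.48). For Notch2 they were 0.942 (0.855 to 1.04) and 1.07 (0.975 to 1.18), and for Maml3 0.981 (0.931 to 1.03) and 1.01 (0.956 to 1.07). The intervals of these 3 genes included equality in both pairs of libraries. Rbpj stood at 1.1 (0.958 to 1.26), and its input ratio of 1.25 (1.1 to 1.42) excluded equality. An input interval above 1 occurred at 2.67% of loci and one below 1 at 0.743%, and its part in the Rbpj MeDIP ratio was not tested. The ratio over all listed windows was 0.964 for MeDIP and 1.01 for input, and the median over loci was 0.959 for MeDIP.

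**Figure D2:**
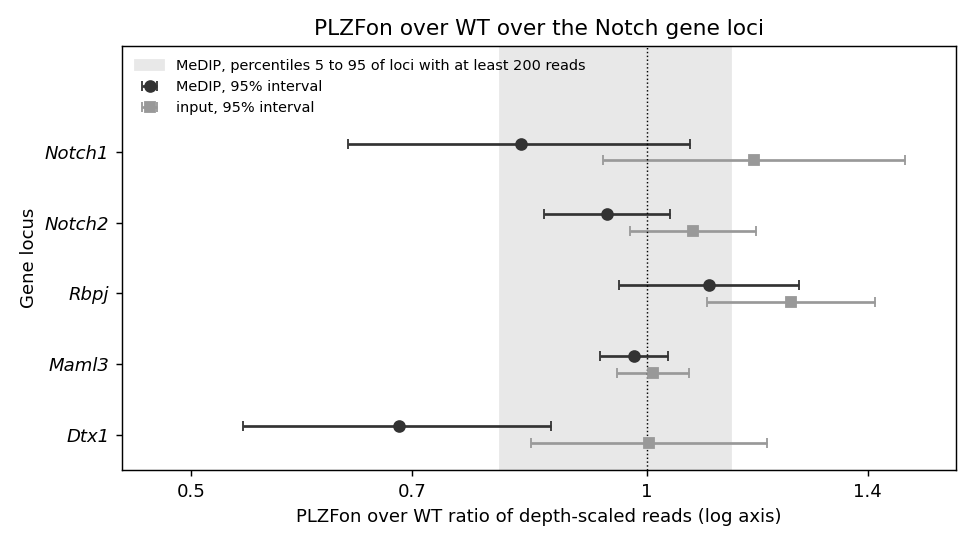
PLZFon over WT ratio of depth-scaled reads (x axis, log scale) for MeDIP (black circles) and input (grey squares) over the 5 gene loci, with exact 95% intervals. The grey band spans the MeDIP ratios from percentile 5 (0.8) to percentile 95 (1.14) over protein-coding loci that had 200 or more reads. The Dtx1 MeDIP point (0.686) lies to the left of the band, and its interval ends at 0.864.

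Among the 3556 protein-coding loci with at least 200 MeDIP reads, Dtx1 had rank 7 counted from the lowest ratio, Notch1 rank 284, Notch2 rank 1518, Maml3 rank 2172 and Rbpj rank 3266. Counting error spreads the ratios of loci with few reads most, so extreme ranks favour loci near the minimum. Dtx1 had 339 reads by the divided sums. An interval wholly below 1 occurred at 8.07% of these loci and one wholly above 1 at 1.69%. Over all 7668 loci with at least 20 reads these shares were 5.01% and 1.24%. A count of 1 among 5 genes is not read as a result about the group. The Dtx1 ratio was of like size in windows poor and rich in CpG: in windows with 1 or 2 CpG the ratio was 0.665 (0.489 to 0.898) and in windows with 3 or more it was 0.718 (0.489 to 1.04). Of the 82 Dtx1 windows, 64 had fewer depth-scaled reads in PLZFon than in WT (78%), against 53.8% of all listed windows. This share was 74% in Notch1, 56.8% in Notch2, 53% in Maml3 and 37.6% in Rbpj. Neighbouring windows share reads and are not independent.

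The loci most like each gene in their pattern over the 4 libraries were found by the Euclidean distance of centred log2 depth-scaled reads over 3556 loci. They were Copg1 and Sh3bp2 for Dtx1 (distances 0.0705 and 0.125), Plaur and Prkd2 for Notch1 (0.0215 and 0.0524), Lgi2 and Plekha3 for Notch2 (0.00854 and 0.0147), Smg5 and Zscan18 for Rbpj (0.032 and 0.0381), and Utp25 and Erich3 for Maml3 (0.0037 and 0.0123). Copg1 had a MeDIP ratio of 0.675, near that of Dtx1, which follows from its choice by these same values.

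The third comparison followed the difference along each gene in bins of 10 kb, counted from the annotated start in the direction of transcription. Over the 5 loci 72 bins held at least 20 MeDIP reads. The ratio was below 1 in 40 and above 1 in 32 of them. The interval lay below 1 in 3 bins and above 1 in 1, against 2.06% and 1.02% of all 10 kb bins of the table. These intervals take a read to span 4 windows. With 7, where the MeDIP libraries level off, the interval included 1 in all 72 bins.

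In Dtx1 all 4 bins with at least 20 reads lay below 1, from 0.596 to 0.799. The bin from 10 to 20 kb held the most reads, with 451 in WT MeDIP and 221 in PLZFon MeDIP, 564 in WT input and 471 in PLZFon input. Its MeDIP ratio was 0.698 (0.496 to 0.971) and its input ratio 1.01 (0.781 to 1.29). The other 3 bins stood at 0.799 (0.381 to 1.61) from 0 to 10 kb, 0.596 (0.324 to 1.06) from 20 to 30 kb and 0.672 (0.368 to 1.19) from 30 kb to the end. Their input ratios were 0.793, 1.11 and 1.03. From 0 to 10 kb MeDIP over input was thus level, at 2.53 in WT and 2.55 in PLZFon. Leaving out any bin in turn gave ratios from 0.672 to 0.706 over the rest of the gene.

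Outside the gene, the nearest 3 bins on the 3′ side lay above 1 and the nearest 3 upstream below 1, and bins further out lay on both sides of 1. Beyond the 3′ end, in the next gene Rasal1, the neighbouring bin had a ratio of 1.31 (0.857 to 2.01), with 195 reads in WT MeDIP and 180 in PLZFon MeDIP, and the next 2 bins had 1.4 (0.771 to 2.52) and 1.27 (0.778 to 2.06). All 3 of these intervals included equality, and the input ratios of these bins were 1.33, 1.13 and 1.11. Upstream, the bin from 10 kb before the start up to the locus had 373 and 174 reads, a ratio of 0.664 (0.452 to 0.962). The next bin stood at 0.97 (0.594 to 1.57), and the bin from 30 to 20 kb before the start had 539 and 248 reads, a ratio of 0.655 (0.477 to 0.891). The input ratios of these low bins were 1.17 (0.873 to 1.57) and 0.964 (0.686 to 1.35). Over all 21 bins of the flanks the summed ratio was 0.94 (0.846 to 1.04). The locus took in 3 windows that also lie in Rasal1, and without the flanks of 1000 bp the Dtx1 ratio was 0.697 (0.543 to 0.891).

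**Figure D3:**
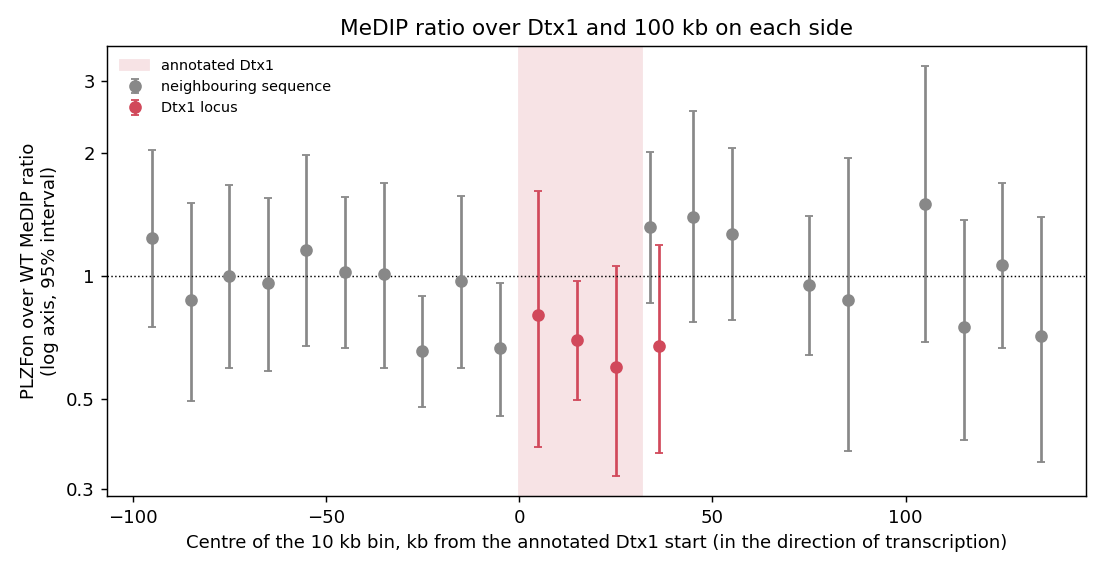
PLZFon over WT MeDIP ratio (y axis, log scale) with exact 95% intervals in bins of 10 kb with at least 20 reads, by distance in kb from the annotated Dtx1 start (x axis). All 4 bins of the locus (red) lie between 0.596 and 0.799, and of the 19 neighbouring bins (grey) 9 lie below 1 and 10 above.

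In Rbpj 3 of the 7 bins with at least 20 reads lay below 1 and 4 above, and differences between bins were not tested. From the start to 10 kb it was 1.08 (0.813 to 1.43), and the bin from 30 to 40 kb, which holds both RefSeq promoter starts, had 118 reads in WT MeDIP and 152 in PLZFon MeDIP with 252 and 240 input reads. This bin had the highest ratio of the 72, 1.83 (1.1 to 3.07), with an input ratio of 1.15 (0.792 to 1.66). The bin before it had 1.28 (0.972 to 1.69) beside an input ratio of 1.54 (1.22 to 1.95). From 60 to 70 kb the ratio was 0.65 (0.296 to 1.34), the lowest in Rbpj among bins with at least 20 reads, and from 90 to 100 kb 0.796 (0.556 to 1.13). In WT the bin from 30 to 40 kb had the weakest pull-down of Rbpj, 1.88 times the input, where PLZFon had 3.

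In Notch1 all 4 bins with at least 20 reads lay below 1, from 0.628 to 0.895, and no interval excluded equality. The bin from 20 to 30 kb held most of its reads, with 346 in WT MeDIP and 217 in PLZFon MeDIP, a ratio of 0.893 (0.624 to 1.27), while the inputs gave 1.35 (0.963 to 1.89). The lowest bin, from 30 to 40 kb, had 0.628 (0.318 to 1.18). The 18 neighbouring bins had a summed ratio of 0.903 (0.803 to 1.01), near that of the gene.

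In Notch2 the 15 bins ran from 0.706 to 1.17, with 10 below 1 and 5 above, and no interval excluded equality. The lowest bin, from 40 to 50 kb, had 252 reads in WT MeDIP and 125 in PLZFon MeDIP, a ratio of 0.706 (0.445 to 1.1). The highest, from 10 to 20 kb, had 114 and 94, a ratio of 1.17 (0.65 to 2.1).

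Maml3 offered the longest stretch, with 42 bins, a median ratio of 1.02 and 23 bins above 1. Its highest bin, from 140 to 150 kb, had 267 and 261 reads, a ratio of 1.39 (0.974 to 1.99), where the inputs gave 0.758 (0.485 to 1.17). The lowest, from 320 to 330 kb, had 273 reads in WT MeDIP and 117 in PLZFon MeDIP, a ratio of 0.61 (0.382 to 0.954), while the inputs gave 1.22 (0.792 to 1.9). The bin from 170 to 180 kb, which holds the strongest window, had the most reads, 1319 and 765, and a ratio of 0.826 (0.687 to 0.99), where the inputs gave 0.875 (0.704 to 1.09).

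**Figure D4:**
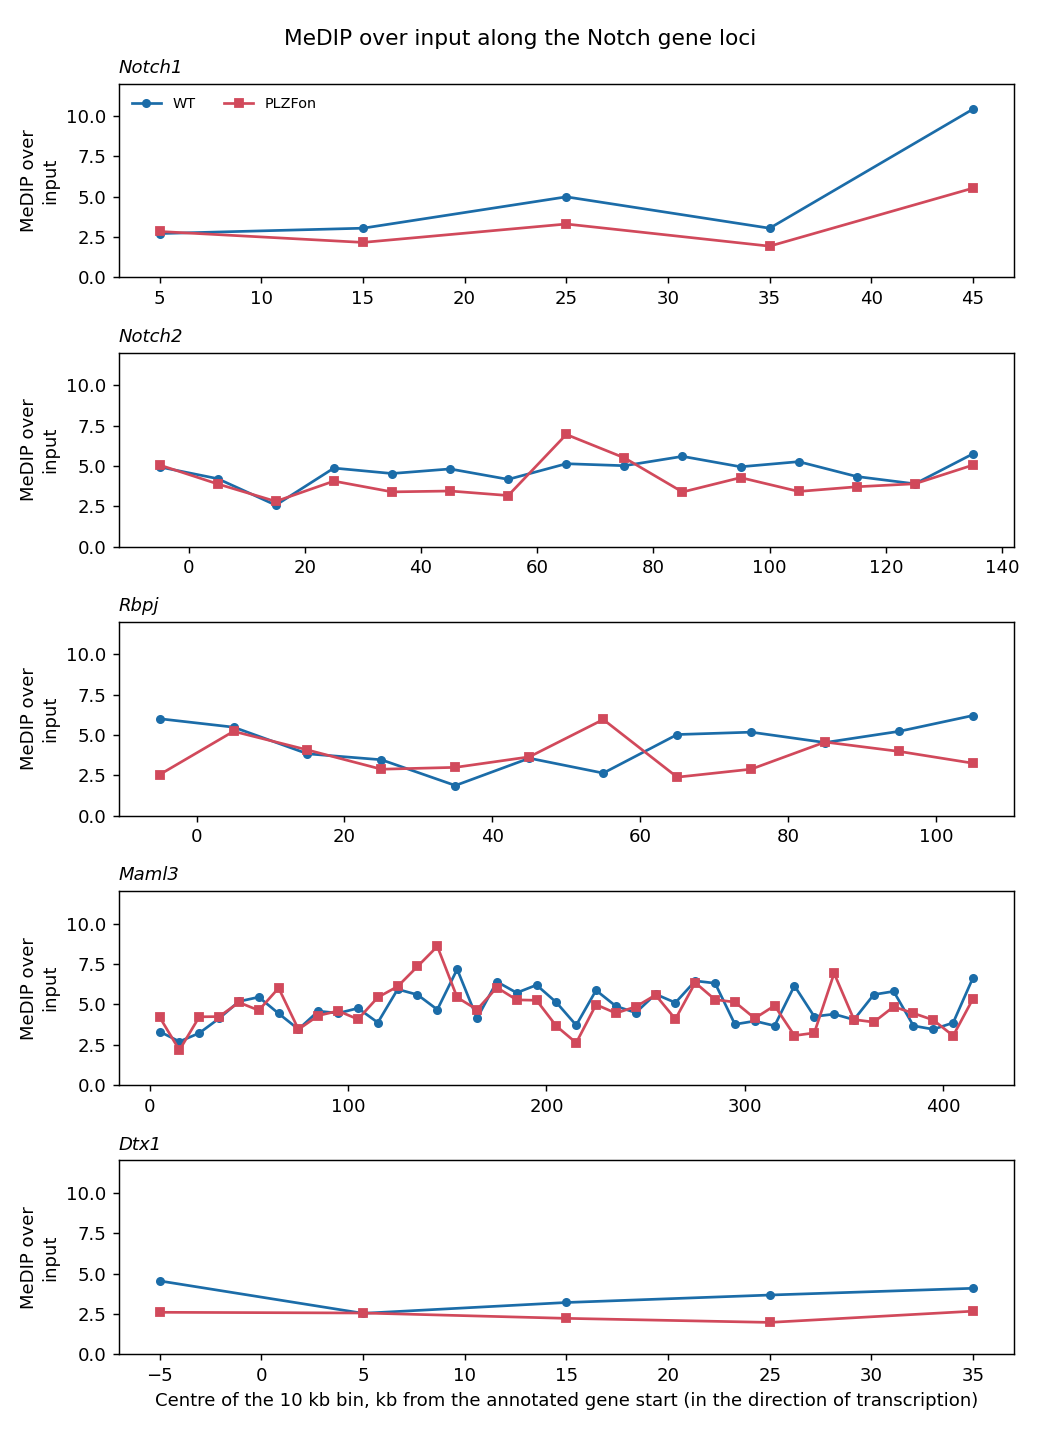
MeDIP over input (y axis) in WT (blue circles) and PLZFon (red squares) in bins of 10 kb along each of the 5 loci, by distance in kb from the annotated gene start (x axis), with 1 library per point. In Dtx1 the PLZFon line runs below the WT line from 10 kb on (2.22 against 3.2 in the bin from 10 to 20 kb). It also does so in the bin before the start (2.6 against 4.54, under 20 reads), and the lines are level from 0 to 10 kb. In Maml3 the lines cross many times.

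The fourth comparison asked which 100 bp windows of these genes differed. To be called, a window needed 20 or more MeDIP reads in the 2 libraries together, a difference of 2-fold or more, and an interval without 1. Of windows with enough reads, in Maml3 6 of 492 were called higher and 8 lower, in Notch2 3 of 125 higher and 0 lower, in Rbpj 1 of 70 higher and 2 lower, in Dtx1 0 of 20 higher and 1 lower, and in Notch1 0 of 20 in either direction. The shares over all listed windows with enough reads were 1.13% higher and 2.17% lower, or 3.3% in all. Applied to the pair of inputs, the rule called 3.36% of windows in both directions together. The split of the 21 called windows, 10 higher and 11 lower, became 21 higher and 6 lower with TMM factors.

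The lowest window of Maml3 (chromosome 3, 51779101 to 51779200) lay in its lowest bin and had 19 reads in WT MeDIP and 1 in PLZFon MeDIP, with 8 and 12 in the inputs. Its ratio was 0.0749 (0.0018 to 0.471). The highest window of Maml3 (51963101 to 51963200) had 6 and 16 MeDIP reads, a ratio of 3.8 (1.41 to 11.8), and the inputs had 11 and 5. It is joined by 2 called neighbours that share its reads. The single called window of Dtx1 (chromosome 5, 120684501 to 120684600) had 19 and 4 MeDIP reads and 12 reads in each input, a ratio of 0.3 (0.0742 to 0.902).

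In Rbpj the highest called window (chromosome 5, 53577501 to 53577600) had 6 and 14 MeDIP reads, a ratio of 3.32 (1.2 to 10.5), and the lowest (53653401 to 53653500) had 21 and 4, a ratio of 0.271 (0.0677 to 0.804). The highest in Notch2 (chromosome 3, 98147801 to 98147900) had 11 and 18 MeDIP reads, a ratio of 2.33 (1.04 to 5.46), and 1 of the other 2 called windows adjoins it. The authors' deposited table called 0 windows of the 5 genes at an adjusted p below 0.05. Its smallest p in these genes was 0.000979 in Maml3, with an adjusted p of 0.752.

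The fifth comparison placed the 5 genes beside the rest of the pathway. The list held 54 other Notch pathway genes, of which 29 lay in the range of the table and all 29 had at least 20 reads. By the locus rule 0 of them were called in either direction. The median PLZFon over WT ratio of the 29 was 0.907, against 0.959 over all protein-coding loci, with 21 below 1 and 8 above. Of all protein-coding loci with 20 or more reads, 62.9% had a ratio below 1. TMM factors raise the ratios of the list and of all loci alike, by 0.05 on the log2 scale.

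Of the 3 measured ligand genes, Jag1 had 936 reads in WT MeDIP and 614 in PLZFon MeDIP, a ratio of 0.934 (0.757 to 1.15). Among genes that modify the receptor with sugars, Lfng (Lunatic fringe), which tunes the response of Notch to its ligands, had the lowest ratio of the list. It had 103 and 40 MeDIP reads, a ratio of 0.553 (0.238 to 1.19), and the inputs had 91 and 83. Among genes of the gamma-secretase complex that cuts the receptor, Psenen had the highest ratio of the list, 2.2 (0.848 to 6.06). It rested on 33 and 51 MeDIP reads, which are 21 in all after division by 4. Its input ratio was 1.69 (0.736 to 4).

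Of the ubiquitin ligase and trafficking genes 5 of 5 measured had a ratio below 1, with Fbxw7 at 0.999 (0.825 to 1.21), which is above 1 with TMM factors. Itch, a ubiquitin ligase that acts on Notch, had 682 and 363 MeDIP reads, a ratio of 0.758 (0.581 to 0.983). It was the only one of the 29 with an interval below 1, where 5.01% of all loci had one, and the interval reached 1.02 with TMM factors and 1.07 with a read taken to span 7 windows. Dtx2, a Deltex relative of Dtx1, had 769 and 437 MeDIP reads, a ratio of 0.809 (0.634 to 1.03). The 5 corepressor genes had a median of 0.983, with Kdm5a highest at 1.34 (0.811 to 2.19).

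The 9 measured target genes had a median ratio of 0.89. Nrarp, a target that feeds back on Notch, had 68 and 30 MeDIP reads, a ratio of 0.628 (0.228 to 1.56), and the inputs had 108 and 125. Gata3, a T cell transcription factor gene, had 116 and 111 MeDIP reads, a ratio of 1.36 (0.78 to 2.38), and a like input ratio of 1.53 (0.896 to 2.64). None of these target genes had an interval that excluded equality.

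**Figure D5:**
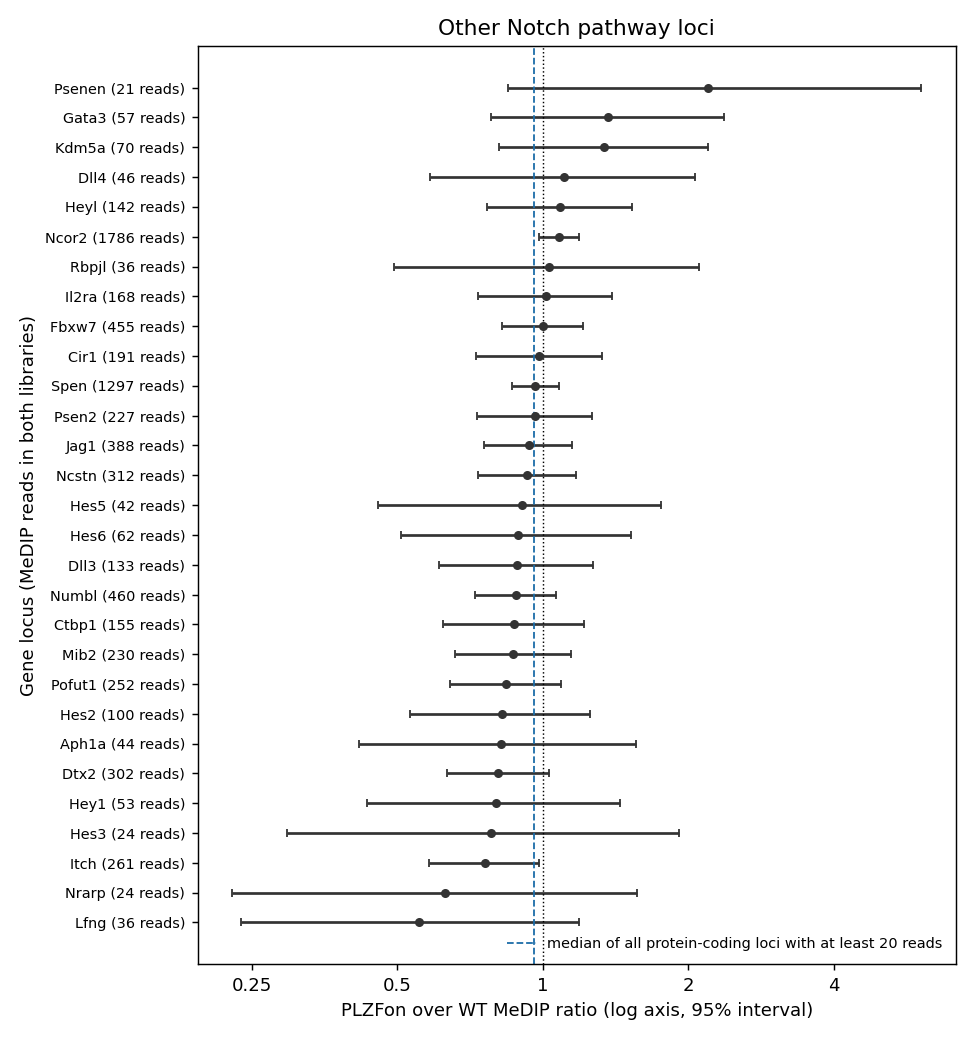
PLZFon over WT MeDIP ratio (x axis, log scale) with exact 95% intervals for the 29 other Notch pathway loci in the range of the table, in order of the ratio, with the number of MeDIP reads in both libraries beside each name. The blue dashed line marks the median over all protein-coding loci with at least 20 reads (0.959). Itch (0.758) has the only interval that ends below 1.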

How the data were processed

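Sonicated fragments had a median between 180 and 230 bp, as the labels' protocols state. Per the submitters' processing notes the tools were BWA and edgeR on mm10, without versions. The deposited table gives raw counts of reads per 100 bp window for each library, RPKM values that the authors computed from the counts, a relative methylation score and a CpG factor score from the authors, and the authors' edgeR log2 fold changes together with p-values, raw and adjusted, as deposited. The column names speak of sorted, unique alignments, per the file headers. The table has 1048576 lines with its header and ends in chromosome 7 at position 139972600. Another 6 columns of values were not used.

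Library totals (10633609 to 60683037 reads) were taken as the middle of the range that counts and rounded RPKM values allow. Window sums were divided by 4, since in the inputs the squared difference between windows, scaled to their sum, rose more slowly beyond a distance of 4 windows (WT 1.61 at 4 and 1.9 at 8). In the MeDIP libraries it rose up to 7 windows (WT 7.61 at 4 and 9.62 at 7, PLZFon 5.46 and 6.81), so division by 7 was an alternative. Only listed windows were summed. Locus and window rules required 20 or more reads, a 2-fold difference and an exact 95% interval without 1. Genes came from RefSeq (GRCm38.p6), and all 54 pathway symbols and the 5 genes matched. Of 15 marker genes 11 matched the promoter table. The 5 genes and the lists were chosen with earlier results of these data known. Named were the 5 genes, their strongest window, their highest and lowest called windows and bins, the 3 highest and 3 lowest pathway loci, and the 2 most alike loci. Jag1, Dtx2 and the other bins that are given were added after their values were seen. With 1 library a group no p-value was computed. The locus rule was tested on simulated reads, drawn independently from the binomial model that the interval assumes. That test does not cover reads shared by windows or spread between libraries. Alternatives were TMM factors (edgeR 4.0.16), 2 other scalings, flanks, read minimums, folds and dropping windows with 60 or more input reads. Runs of windows, leaving out bins and division by 7 were added after seeing the data. Python 3.11.15 and scipy 1.17.1 were used.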

Additional observations from a re-analysis of the deposited data

How the results depend on the processing

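The PLZFon over WT MeDIP ratios of the 5 genes stayed within their intervals in all 60 alternatives. Some of these could not move a ratio. Another division of the window sums changes only the interval, and 0 windows of each gene had 60 or more input reads to drop. For Dtx1 they ran from 0.593 to 0.75 with an interval below 1 in 12 of 12. Division by 7 in place of 4 widened intervals, so that 0 bins inside the genes and 1 beside Dtx1 (0.655, 0.427 to 0.987) excluded 1. Counting windows as separate reads narrowed the intervals of Notch1 (0.726 to 0.938), Notch2 (0.898 to 0.988) and Rbpj (1.03 to 1.18). These then excluded 1. When each bin of Rbpj was left out in turn, the highest ratio over the rest of the gene also excluded 1 (1.17, 1.01 to 1.36). TMM factors raised all ratios by 0.05 on the log2 scale. Keeping only windows with at least 20 MeDIP reads, which selects for pull-down, raised MeDIP over input in WT and PLZFon to 7.8 and 4.13 in Notch1, 7.28 and 5.95 in Notch2, 5.3 and 4.49 in Rbpj, 7.1 and 6.87 in Maml3, and 5.04 and 3.35 in Dtx1. In the same windows the Notch1 input ratio rose to 1.58 (1.08 to 2.32), which excluded 1. Keeping only runs of at least 4 windows gave MeDIP over input of 5.17 and 4.61 in Notch2 and 5.63 and 5.51 in Maml3. The 10 higher and 11 lower called windows became 23 and 20 at a minimum of 10 reads, 1 and 1 at 40 reads, 4 and 5 at 3-fold, and 21 and 6 with TMM factors. Of the pathway loci 0 were called under any alternative. Itch lost its interval below 1 with TMM factors (0.786), scaling by the listed windows (0.786), scaling within CpG classes (0.78), no flank (0.789), flanks of 5000 bp (0.796), windows of at least 20 reads (0.806) and division by 7 (0.758, 0.53 to 1.07). No paired analysis was possible because each group has 1 library and the labels give no replicate numbers. Depth limits single windows most, since the median listed window held 10 WT MeDIP reads.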

Other observations

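By the authors' deposited table, the mean relative methylation score over the listed windows was 0.615 in WT and 0.519 in PLZFon for Dtx1, against 0.625 and 0.57 over all listed windows. Rbpj had 0.632 and 0.593, Notch1 0.642 and 0.565, Notch2 0.626 and 0.569, and Maml3 0.622 and 0.567. These scores come from the same reads as the counts.

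A pair of long noncoding RNA genes lie inside the genes described: Gm40103 in Notch2, with 11 of its listed windows, and Gm46803 in Maml3, with 12. The reads there cannot be assigned to either gene. No listed window lay in the parts of 0610009E02Rik, Mir6996 and Gm35978 that overlap the Notch1 locus.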
